A study of Mus musculus with 12 samples.

Results

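The major urinary proteins, encoded by the Mup genes, were examined in liver RNA-seq of mice given corticosterone (CORT), the main glucocorticoid of rodents. The 10 genes described are Mup3, Mup7, Mup10, Mup11, Mup12, Mup14, Mup17, Mup20, Mup21 and Mup22, taken from the deposited liver table by gene name. They are 10 of the 49 Mup rows in a table of 55416 rows, the others being 12 further Mup genes and 27 pseudogenes (Mup-ps). Male C57BL6/J mice, 8 weeks old at the start, received CORT at 40 mg/kg or vehicle (Veh) by subcutaneous injection every day for 8 weeks. No genetic change is stated for either group. Each group had 3 liver libraries (Veh1 to Veh3 and CORT1 to CORT3) and 3 duodenum libraries, 12 in all, each prepared from 50 mg of whole tissue, so fewer hepatocytes and less Mup RNA per hepatocyte cannot be told apart. The values are TPM, which set each transcript's abundance against all others in its library and correct for length.

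Major urinary proteins are small, barrel-shaped lipocalins that hepatocytes secrete into the blood and that the kidney passes into the urine. They carry volatile pheromones in a central pocket and release them slowly from scent marks, and Mup20, also called darcin, is itself a male pheromone. In the liver they are made mostly by males, and their transcription is known to depend on pulses of growth hormone acting through STAT5, on testosterone, on thyroid hormone and on glucocorticoids. Many copies lie side by side on 1 chromosome and are almost the same in sequence, while a few at the edges of the cluster, among them Mup3, Mup20 and Mup21, are older and more diverged.

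How far the copies can be told apart by their reads was measured on the GENCODE M21 transcripts, an annotation of GRCm38, whereas the authors' values rest on GRCm39 according to the submitters' processing notes. Over their coding sequences the 7 members other than Mup3, Mup20 and Mup21 were 98.3% to 99.6% identical in all 21 pairs. Mup11 and Mup22 differed at 2 positions only, and Mup12 and Mup14 at 3. Mup20 was 91.3% identical to its nearest member, Mup11, and Mup3 and Mup21 were 94.8% identical to each other but only 82.1% to 84.7% identical to the group of 7. The stretch of 60 bases that took the most forms among the members, within the last 500 coding bases compared without gaps, is printed here because it shows how little distinguishes the copies. Capitals mark bases that differ from the most common base among the 10 members.
Mup11: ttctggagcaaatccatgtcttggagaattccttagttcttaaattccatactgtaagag
Mup12: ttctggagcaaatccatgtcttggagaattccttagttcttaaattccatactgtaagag
Mup7: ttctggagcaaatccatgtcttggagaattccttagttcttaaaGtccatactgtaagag
Mup17: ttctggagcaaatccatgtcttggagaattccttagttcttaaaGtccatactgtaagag
Mup10: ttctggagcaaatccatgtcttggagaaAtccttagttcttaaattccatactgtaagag
Mup22: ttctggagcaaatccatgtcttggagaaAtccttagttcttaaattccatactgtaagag
Mup14: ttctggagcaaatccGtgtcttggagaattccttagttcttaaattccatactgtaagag
Mup20: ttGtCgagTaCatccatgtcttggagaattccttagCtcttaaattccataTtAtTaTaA
Mup21: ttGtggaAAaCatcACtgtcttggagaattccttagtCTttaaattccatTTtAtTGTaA
Mup3: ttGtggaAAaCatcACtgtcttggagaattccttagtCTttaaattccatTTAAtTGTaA
These 60 bases took 7 distinct forms among the 10 members. Mup11 and Mup12 had the same stretch, as did Mup7 and Mup17, and Mup10 and Mup22. Mup14 differed from the common form at 1 base, Mup20 at 10, Mup21 at 15 and Mup3 at 16.

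The reads were paired and 150 bases long. The transcripts were cut into every window of 150 bases, and each window was looked for in all other Mup transcripts. Windows stand for single reads, so what the pairing of reads adds was not measured. No window of Mup3 or Mup21 occurred in any other Mup row (100% were their own). For Mup20, 68.9% of windows were its own, and the rest occurred only in the pseudogene Mup-ps19. Of Mup17's windows 59.6% were its own, against 35.2% for Mup11, 34.3% for Mup14, 32.9% for Mup7, 27.7% for Mup10 and 24.1% for Mup12. Mup22 had 0 of 712 windows of its own, and 91.9% of them were also in Mup10. Its TPM value, and in part those of the other 6 close copies, therefore depends on how RSEM (the authors' quantifier) divided reads that match several genes. The 7 close members were linked by shared windows to 9 other Mup genes, in a block of 16. A sum over that block depends less on how reads were split inside it, although TPM is scaled by length and the members' main transcripts in the block run from 861 to 930 bases.

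The Mup genes were among the most abundant transcripts of these livers. The 10 members together held 12.5%, 3.27% and 9.43% of total TPM in Veh1, Veh2 and Veh3, and 5.47%, 2.24% and 2.17% in CORT1, CORT2 and CORT3. The mean share was 8.41% ± 4.72 (SD, n = 3) in vehicle livers and 3.29% ± 1.89 (SD, n = 3) in CORT livers, a difference of -5.12 percentage points. The groups overlapped, because Veh2 lay below CORT1. The difference was -7.69 points without Veh2 and -3.05 points without Veh1. Over all 49 Mup rows the shares were 17.6%, 4.0% and 12.6% in vehicle and 7.68%, 3.05% and 2.98% in CORT livers, in the same order of libraries.

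**Figure D1:**
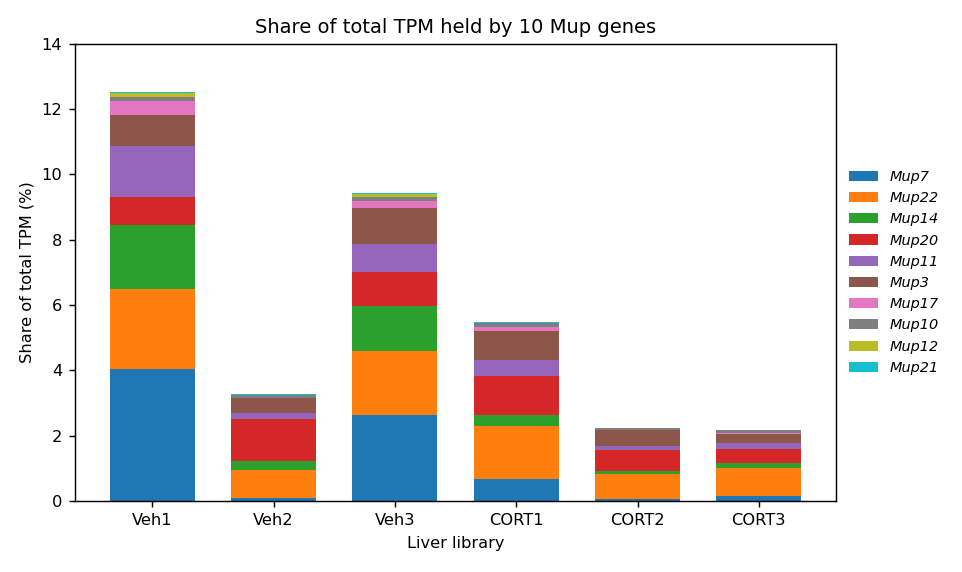
Share of total TPM (%, vertical axis) held by the 10 Mup genes in each of the 6 liver libraries, with 1 coloured segment per gene and no error bars since each bar is 1 library. Veh1 and Veh3 reached 12.5% and 9.43%, whereas Veh2 at 3.27% was below CORT1 at 5.47%, and the Mup7 segment nearly vanished in Veh2.

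Veh2 stood apart from the other vehicle libraries. It was the lowest of the 3 vehicle libraries for 9 of the 10 members and for 19 of 20 other Mup rows tested, but for only 11.2% of the 11699 genes tested. Veh2 was the highest vehicle library for 68.7% of all genes tested. Its label was not contradicted by Fkbp5, a classical glucocorticoid target, which stood at 7.14, 12.7 and 19.5 TPM in Veh1 to Veh3 and at 273, 249 and 221 TPM in CORT1 to CORT3 (log2 fold change 4.23, SE 0.32, limma adjusted p = 0.00178). All 8 hepatocyte markers were present, with a summed level of 95365 to 125668 TPM in vehicle and 116851 to 124189 TPM in CORT livers, the highest in Veh2. Of 6 liver endothelial markers 4 rose with CORT, while 6.92% of all genes passed the thresholds given below, in either direction. The sum of the 6 ranged from 22.8 to 51.7 TPM in vehicle and from 94.4 to 121 TPM in CORT livers, with Veh2 the highest vehicle library. None of the markers of cholangiocytes, stellate cells, macrophages, lymphocytes or pancreatic acinar cells that were tested passed, and no adipocyte marker reached the filter. Only 1 of 6 lymphocyte markers and 1 of 6 acinar markers reached the filter. All 6 stellate markers were highest in Veh2 among vehicle livers, with sums of 71.1, 219 and 130 TPM in Veh1 to Veh3 and 159, 163 and 213 TPM in CORT livers. The lymphocyte sums were low and did not overlap between groups, at 1.18 to 4.60 TPM in vehicle and 0.090 to 0.57 TPM in CORT livers. Single-gene values did not overlap for 32.2% of all genes. All 6 lymphocyte markers were also highest in Veh2 among vehicle livers. The part of these differences in the Mup values was not tested. Labels do not say whether the libraries of a group came from separate mice beyond calling them biological replicates, so p-values measure the spread between these libraries.

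The block of 16 genes that share windows was summed, since its sum depends less on how reads were split inside it. Windows were matched exactly and among Mup transcripts only, so reads shared with other rows through near matches were not examined. The TPM of the block summed to 156898 in Veh1, 22516 in Veh2 and 103655 in Veh3. In CORT1, CORT2 and CORT3 it summed to 54701, 18881 and 21926. The mean was 94356 ± 67672 TPM (SD, n = 3) in vehicle and 31836 ± 19860 TPM (SD, n = 3) in CORT livers, 2.96 times higher in vehicle. Within the vehicle group the highest sum was 6.97 times the lowest. Veh2 was thus low for the block as a whole and not for single copies alone, and lay close to CORT2 and CORT3.

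Mup7, the most abundant member in vehicle livers, showed this spread in full. It stood at 40282, 726 and 26272 TPM in Veh1 to Veh3 and at 6568, 546 and 1341 TPM in CORT1 to CORT3. Its 2 highest values were both from vehicle, yet Veh2 was below CORT1 and CORT3. By rank among all rows Mup7 was the 2nd most abundant gene in Veh1 and the 5th in Veh3, but the 150th in Veh2. In CORT livers it ranked 27th, 214th and 103rd. Mup7 made up 32.2% of the members' summed TPM in Veh1 and 2.23% in Veh2. The fitted log2 fold change was -2.44 with an SE of 1.60 (limma adjusted p = 0.382).

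Mup17 and Mup12 varied in the same way at lower levels. Mup17 was at 4494, 77.5 and 2009 TPM in vehicle and at 1169, 54.1 and 97.0 TPM in CORT livers. Mup12 was at 1267, 30.05 and 860 TPM in vehicle and at 159, 29.7 and 26.4 TPM in CORT livers. In both genes Veh1 and Veh3 stood above all CORT libraries, and Veh2 lay close to CORT2 and CORT3. The highest vehicle value was 58.0 times the lowest for Mup17, 55.5 times for Mup7 and 42.1 times for Mup12. The SD within groups on the log2 scale was 2.74 for Mup17, 2.59 for Mup7 and 2.31 for Mup12, against a median of 0.22 over all genes tested. Neither difference passed, with a log2 fold change of -2.27 (SE 1.69, limma adjusted p = 0.441) for Mup17 and -2.66 (SE 1.43, limma adjusted p = 0.287) for Mup12.

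Mup14 and Mup11 were the next most abundant of the close copies after Mup22. Mup14 was at 19717, 2684 and 13752 TPM in Veh1 to Veh3 and at 3336, 879.5 and 1272 TPM in CORT1 to CORT3. Mup11 was at 15532, 2061 and 8476 TPM in vehicle and at 4880.2, 1153 and 1763 TPM in CORT livers. For both, only CORT1 overlapped the vehicle range, and the lowest vehicle value stood above CORT2 and CORT3. Mup14 had the smallest p of the 10 members, with a log2 fold change of -2.54 (SE 0.80, unadjusted p = 0.0159, limma adjusted p = 0.107). That of Mup11 was -1.59 (SE 0.81, limma adjusted p = 0.265).

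Mup22 and Mup10, which share most of their windows, differed in level and in spread. Mup22 was at 24341, 8765 and 19356 TPM in vehicle and at 15964, 7621 and 8628 TPM in CORT livers, a 2.78-fold range among vehicle livers. Mup10 was at 1152, 963 and 1255 TPM in vehicle and at 1123, 752 and 904 TPM in CORT livers. Mup10 was the steadiest member, with a 1.30-fold range among vehicle livers and an SD within groups of 0.25 on the log2 scale. The log2 fold change was -0.66 (SE 0.44, limma adjusted p = 0.387) for Mup22 and -0.29 (SE 0.19, limma adjusted p = 0.381) for Mup10. As no window of Mup22 is its own, its level depends on how reads were divided between it and its neighbours in sequence.

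The 3 diverged members have reads that are largely or wholly their own. Mup3 was at 9490.2, 4408 and 11128 TPM in vehicle and at 8707, 4612 and 2934 TPM in CORT livers. Mup21 was at 284, 143 and 311 TPM in vehicle and at 175, 37.6 and 69.7 TPM in CORT livers. In both, Veh2 was again the lowest vehicle library and lay below CORT1. Their vehicle values ranged 2.52-fold and 2.17-fold. The log2 fold change was -0.66 (SE 0.48, limma adjusted p = 0.429) for Mup3 and -1.58 (SE 0.56, unadjusted p = 0.0252, limma adjusted p = 0.134) for Mup21.

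Mup20, the pheromone darcin, was the exception in its order of libraries. It was at 8349, 12697 and 10498 TPM in Veh1 to Veh3 and at 11892, 6485 and 4269.85 TPM in CORT1 to CORT3. Veh2, the lowest vehicle library for the other 9 members, held the highest Mup20 value of all 6. Mup20 made up 39.0% of the members' summed TPM in Veh2 and 6.68% in Veh1. The pseudogene Mup-ps19, the only row with which it shares windows, was also highest in Veh2, at 17.3, 25.9 and 14.9 TPM in vehicle and at 21.2, 12.0 and 7.80 TPM in CORT livers. The log2 fold change of Mup20 was -0.59 (SE 0.37, limma adjusted p = 0.366).

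**Figure D2:**
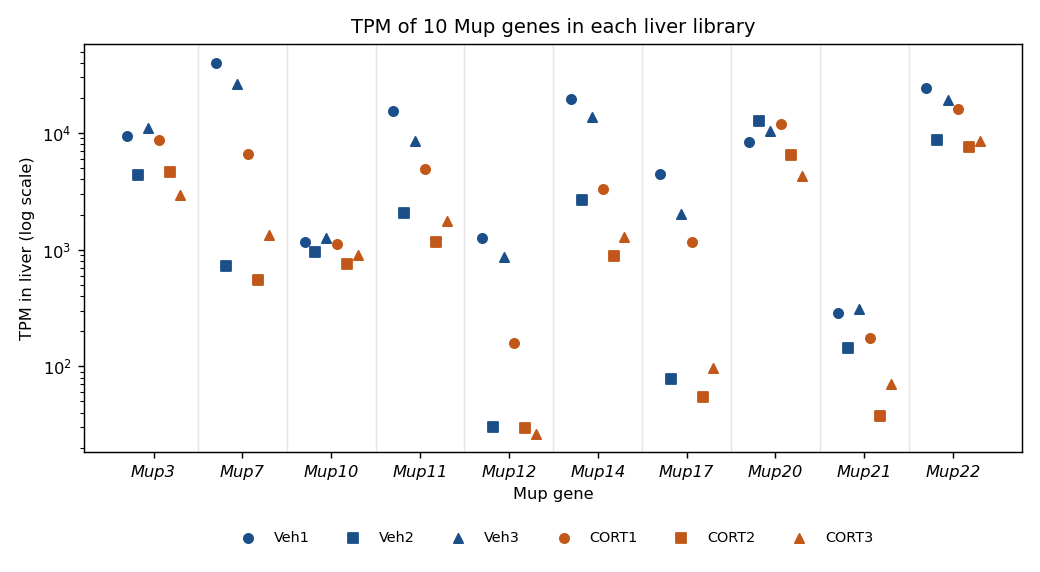
TPM (log axis) of the 10 Mup genes in each liver library, 1 point per library, with blue for Veh and orange for CORT and the marker shape for the library number. Veh2 (blue square) is the lowest blue point for 9 genes and the highest of all points for Mup20, and Mup10 stays between 752 and 1255 TPM throughout.

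TPM is a per-length scale, so levels can be ordered across genes. For the 7 close copies, among them Mup22 with 0 windows of its own, the order also depends on how shared reads were divided. By mean TPM in vehicle livers the order was Mup7 (22427 ± 20057, SD, n = 3), Mup22 (17487 ± 7954), Mup14 (12051 ± 8643), Mup20 (10515 ± 2174), Mup11 (8690 ± 6738), Mup3 (8342 ± 3504), Mup17 (2194 ± 2214), Mup10 (1123 ± 148), Mup12 (719 ± 630) and Mup21 (246 ± 90.1). In CORT livers Mup22 came first (10738 ± 4554, SD, n = 3), followed by Mup20 (7549 ± 3921) and Mup3 (5418 ± 2969), while Mup7 (2818 ± 3271) was 4th. Mup11, Mup14, Mup10, Mup17, Mup21 and Mup12 followed, down to 71.8 ± 75.8 TPM. In each group all 9 pairs of neighbours in this order had overlapping values. Compared within each library, 2 of the 9 pairs kept their order in all 3 vehicle libraries (Mup22 over Mup14 and Mup3 over Mup17) and 7 of 9 in all 3 CORT libraries, the exceptions there being Mup7 with Mup11 and Mup10 with Mup17.

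Among the 11699 genes tested, those with a mean of 1 TPM or more in vehicle or CORT livers, 810 (6.92%) passed both thresholds, which were a limma adjusted p of at most 0.05 and a change of more than 1.5-fold. Lower values in CORT livers made up 2.01% of the genes tested and 29.0% of those that passed, a part that was 46.3% after median-ratio scaling and 45.4% after rescaling to the non-Mup total. Of the 10 members, 0 passed in either direction by limma. An unadjusted p under 0.05 was reached by 2 of the 10, Mup14 and Mup21, while 25.9% of all genes reached it. All 10 members had a log2 fold change below 0, against 41.6% of all genes, and their median was -1.58 against 0.08 for all genes. The CORT and vehicle values overlapped for all 10 members, whereas they did not for 32.2% of all genes. Since the members share reads and vary together, these counts are not 10 separate observations.

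The number of members that passed moved with 1 library. Without Veh2, 2 of 10 members passed both thresholds, against 1.35% of all genes passing with lower values: Mup14 (log2 fold change -3.41, SE 0.58, limma adjusted p = 0.0340) and Mup12 (-4.35, SE 0.81, limma adjusted p = 0.0390). The values of 9 of 10 members then no longer overlapped, against 51.0% of all genes, Mup20 being the one that still did. Veh2 stood out by these same values, as the lowest vehicle library for the same 9 members, against 11.2% of all genes. Leaving it out raises the lowest vehicle value of each, so these counts are no independent support for a difference. For 68.7% of all genes Veh2 was instead the highest vehicle library, so the 51.0% is no like background. Mup7 reached -4.27 (SE 1.02, limma adjusted p = 0.0668) and Mup17 -4.02 (SE 1.33, limma adjusted p = 0.121) without Veh2. CORT1 was the highest CORT library for all 10 members, and without it 0 members passed by limma, with 5 at an unadjusted p under 0.05. All 10 members kept a log2 fold change below 0 when any single library was left out.

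**Figure D3:**
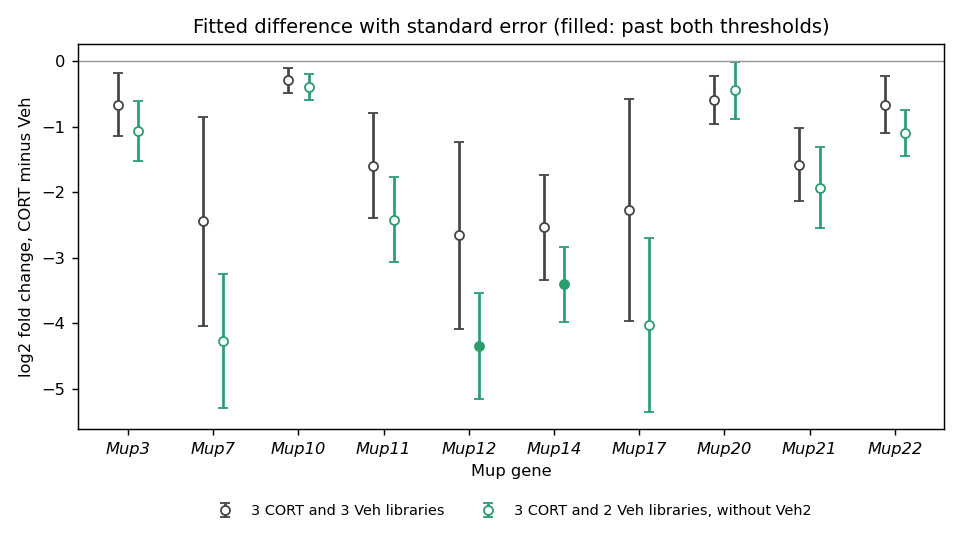
Log2 fold change of each Mup gene, CORT minus Veh, on log2(TPM + 1), with its standard error from limma, for all 6 liver libraries (grey) and without Veh2 (green). Filled points passed both thresholds, which only Mup12 (-4.35) and Mup14 (-3.41) did, without Veh2. Veh2 was the lowest vehicle library for 9 of the 10 genes, so the green points are no independent support.

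The spread among vehicle livers did not simply follow how much of a gene's sequence was its own. Mup10 with 27.7% of windows of its own ranged 1.30-fold and Mup12 with 24.1% ranged 42.1-fold, while Mup17 with 59.6% had the widest range of all, 58.0-fold. The 3 members with more than 60% of windows of their own, Mup3, Mup20 and Mup21, ranged at most 2.52-fold. Whether the division of reads between copies had a part in these ranges was not tested.

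**Figure D4:**
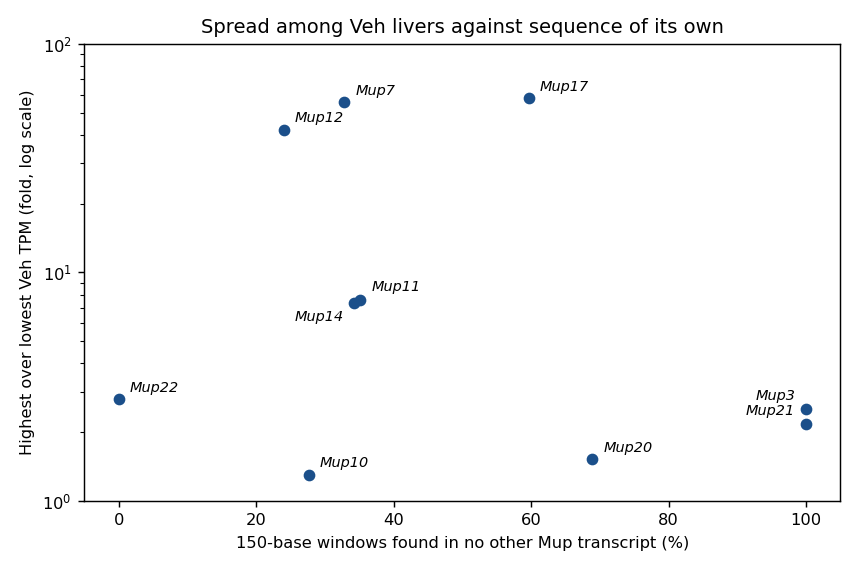
Highest over lowest vehicle TPM (fold, log axis, n = 3 libraries) of each Mup gene against the share of its 150-base windows found in no other Mup transcript (%), 1 point per gene. Mup17, Mup7 and Mup12 lie above 40-fold at 59.6%, 32.9% and 24.1%, whereas Mup3 and Mup21 at 100% lie under 3-fold.

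The members varied together across libraries. Pearson correlations between members were taken on log2(TPM + 1) over the 6 liver libraries, both groups included. The correlation had a median r of 0.89 over 45 pairs and was over 0.9 in 20 of them. It was highest for Mup17 and Mup22 (r = 0.998) and lowest for Mup7 and Mup20 (r = 0.29). Mup20 had a median r of 0.40 with the other 9. These values describe 6 libraries only, and the copies share reads and a common total.

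The promoters were compared where the RefSeq table of GRCm38.p6 holds one, which was the case for 7 of 10 members (not Mup12, Mup20 and Mup22). Each window runs from 250 bases before to 50 bases after the annotated start. The letters TATATAA occurred in 6 of 7 member windows, all but that of Mup7, against 3.24% of all 32851 promoter windows. They began at bases 221 to 243 of the window in Mup10, Mup17, Mup3 and Mup21, before the annotated start, but in Mup11 they spanned that start (from base 249) and in Mup14 they lay after it (from base 263). The 100 bases that end with these letters are shown for 4 members on the minus strand, because they place members with unlike spread beside each other. Capitals mark TATATAA.
Mup11, chr4:60662391-60662490: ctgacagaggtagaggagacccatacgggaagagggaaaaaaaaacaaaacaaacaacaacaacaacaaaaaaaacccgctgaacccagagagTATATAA
Mup17, chr4:61595851-61595950: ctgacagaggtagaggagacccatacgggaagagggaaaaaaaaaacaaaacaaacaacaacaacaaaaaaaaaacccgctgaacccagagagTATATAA
Mup10, chr4:60582179-60582278: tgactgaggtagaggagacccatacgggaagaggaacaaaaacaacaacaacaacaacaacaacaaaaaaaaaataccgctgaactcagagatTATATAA
Mup3, chr4:62087322-62087421: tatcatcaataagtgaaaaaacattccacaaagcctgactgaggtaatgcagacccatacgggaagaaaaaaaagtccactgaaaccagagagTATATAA
Mup11 and Mup17 were 98.0% identical over this stretch and differed at 2 positions, gaps included. Their vehicle values ranged 7.54-fold and 58.0-fold, and a relation between promoter sequence and spread was not tested. Mup10, the steadiest member, was 87.1% identical to Mup11. Mup3 was 55.5% identical to Mup11 and 87.4% identical to Mup21. The letters TTCNNNGAA, which STAT5 is known to bind, were in 0 of 7 member windows against 8.30% of all windows, and TGTTCT, one arm of the site of the glucocorticoid receptor, in 2 of 7 (Mup3 and Mup21) against 19.0%. Both strands were searched, different motifs overlapped in 0 places of the member windows, and a window without the letters says nothing of sites further away.

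The other Mup rows had fold changes of the same sign as the members. Of the 12 further Mup genes and 27 pseudogenes, 10 and 10 reached a mean of 1 TPM in either group. An unadjusted limma p under 0.05 was reached by 4 of the 20, against 25.9% of all genes. All 20 had a log2 fold change below 0, against 41.6% of all genes, and 0 passed by limma, against 6.92%. Most of the further Mup genes share windows with members and with each other, so these counts are not 20 separate observations. Among the 20 rows Mup19 stood at 20835, 1711 and 12957 TPM in vehicle and at 8405, 2306 and 1663 TPM in CORT livers. Mup15 stood at 6255, 77.9 and 2943 TPM in vehicle and at 1304, 34.9 and 58.5 TPM in CORT livers. Mup15 had the lowest log2 fold change of the 20, -3.01 (SE 1.91, limma adjusted p = 0.368). Pseudogene rows held 0.030% of total TPM in vehicle and 0.015% in CORT livers.

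In the duodenum the members were almost absent. Of 60 values, 57 were listed at 0, and the highest was 0.28 TPM, for Mup11 in CORT3.

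Among the factors and receptors linked to Mup expression, 2 of 13 rose in CORT livers and 0 passed with lower values by limma. Of all genes 6.92% passed, in either direction. In this list 4 had an unadjusted p under 0.05 (1 of them lower), against 25.9% of all genes. The median log2 fold change was -0.01. Hnf4a, a master regulator of hepatocyte genes, stood at 145, 161 and 144 TPM in vehicle and at 278.5, 233 and 316 TPM in CORT livers (log2 fold change 0.86, SE 0.15, limma adjusted p = 0.0211). The values of Hnf4a did not overlap between groups, but the number of genes of this list that passed was 0 without Veh1, Veh3 or CORT1 and 1 without Veh2 or CORT3. The glucocorticoid receptor Nr3c1 (-0.01, adjusted p = 0.972), the thyroid hormone receptors Thra (-0.39, adjusted p = 0.274) and Thrb (0.26, adjusted p = 0.383), and Stat5b (-0.11, adjusted p = 0.620) did not pass in limma. Nor did Insr, the insulin receptor (0.38, adjusted p = 0.212), Cebpa (-0.13, adjusted p = 0.635), Cebpb (-0.48, adjusted p = 0.190), Foxa1 (-0.03, adjusted p = 0.956), Foxa2 (0.35, adjusted p = 0.503) and Zhx2 (-0.02, adjusted p = 0.924), a repressor of liver genes, by the same limma fit.

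Of 10 genes of the growth hormone to STAT5 axis, 0 passed by limma, and the median log2 fold change was -0.20. An unadjusted p under 0.05 was reached by 3, against 25.9% of all genes. Without Veh2, and under either scaling, 1 passed. In this list Socs2 and Cish, feedback inhibitors that STAT5 is known to induce and that are named here after their values were seen, stood out in Veh2. Socs2 was at 1.39, 15.4 and 2.58 TPM in vehicle and at 1.03, 0.87 and 2.96 TPM in CORT livers. Cish was at 0.96, 17.9 and 2.87 TPM in vehicle and at 2.27, 4.83 and 1.37 TPM in CORT livers. Veh2, the library with low Mup values among the vehicle livers, had the highest values of both. It was also the highest vehicle library for 8 of the 10 genes of this list and for 68.7% of all genes tested. The relation of Socs2 and Cish to the Mup values was not tested.

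The Mup genes are usually grouped with the male-biased liver genes. By the sign of the log2 fold change 12 of 13 of these were lower in CORT livers, against 41.6% of all genes. Their median was -0.86. An unadjusted p under 0.05 was reached by 7, all lower, against 25.9% of all genes in either direction, and 1 passed. This was Hsd3b5, a steroid reductase, at 181, 48.6 and 135 TPM in vehicle and at 5.41, 0.36 and 1.22 TPM in CORT livers (log2 fold change -5.32, SE 0.67, limma adjusted p = 0.00774). Its groups did not overlap, unlike those of any Mup member, but Veh2 was again the lowest vehicle library, as for 9 of the 13 genes of this list. Groups did not overlap for 6 of the 13, against 32.2% of all genes. The number of this list that passed was 2 without Veh2 or CORT1, with a pseudocount of 0.1 TPM and under either scaling, and 3 with the replicate number as a block. Of 16 female-biased genes only 4 reached the filter and 0 passed by limma, 2 having an unadjusted p under 0.05, with a median log2 fold change of 1.20. In this list 1 gene passed without CORT2, with a pseudocount of 0.1 TPM, with no filter, with no trend and after rescaling to the non-Mup total.

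Other lipocalins, relatives of the Mup genes in structure, mostly had the opposite sign, though Ambp (0.03), C8g (0.03) and Rbp4 (0.05) changed little. Of 9 tested 2 rose, while 6.92% of all genes passed in either direction. A log2 fold change below 0 was found for 1, against 41.6% of all genes, and the median was 0.54. Lcn2, which binds bacterial iron carriers and rises in inflammation, was at 111, 14.3 and 16.1 TPM in vehicle and at 1119, 3206 and 2728 TPM in CORT livers (6.12, SE 0.79, limma adjusted p = 0.00881). Obp2a, an odorant-binding lipocalin, was at 1.32, 0.090 and 2.22 TPM in vehicle and at 101, 28.5 and 97.1 TPM in CORT livers (5.05, SE 0.57, limma adjusted p = 0.00597). Of 17 abundant secretory genes of hepatocytes 1 rose, Hp, which encodes the haemoglobin-binding haptoglobin (1.35, limma adjusted p = 0.0342), and 0 genes of this list passed when any single library other than Veh1 was left out. Their median log2 fold change was -0.03, against -1.58 for the Mup members. Below 0 were 10 of 17, against 41.6% of all genes.

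The 5 genes outside the family whose log2(TPM + 1) followed the members' summed TPM most closely over the 6 livers, of 4864 compared, were Cela1 (r = 0.981), Sult2a8 (r = 0.969), Ugt2b1 (r = 0.957), Ces3a (r = 0.955) and Snrpd3 (r = 0.953). Sult2a8, a sulfotransferase, was at 340, 182 and 332 TPM in vehicle and at 251, 158 and 117 TPM in CORT livers, a 2.90-fold range over all 6. None of the 5 passed by limma, with adjusted p from 0.125 for Cela1 to 0.397 for Snrpd3.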

How the data were processed

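RNA-seq of 12 libraries was deposited as 1 table per tissue, with the TPM of each gene in each library, made by the authors with RSEM after trimming (SeqPrep, Sickle), HISAT2 alignment and StringTie assembly, on GRCm39 per the submitters' processing notes; annotation release and tool versions are not given in the sources used here. TPM keeps no depth, so neither counting intervals nor detection limits can be given. Groups and replicate numbers came from the labels.

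The members and gene lists were chosen with earlier results of these data known. All members, other Mup rows over the filter, list genes past both thresholds, the factors and receptors, the 5 most similar genes (mean of at least 10 TPM) and Fkbp5 are the named genes, of which the text gives those it needs; 2 genes of the list of factors and receptors are counted but not reported here. Liver log2(TPM + 1) was fitted with limma 3.58.1 (R 4.3.3, eBayes with a trend, treatment only) over the 11699 genes averaging 1 TPM or more in vehicle or CORT livers, adjusted by the Benjamini-Hochberg method and tested on simulated data. Alternatives were a pseudocount of 0.1, no filter, a replicate block, no trend, no limit on fold, other scalings and denominators, and leaving out each library. Replicate numbers were not taken as pairing, since same-numbered livers did not deviate together (r = 0.038, -0.008 and -0.120). Coding identities used 1 GENCODE M21 transcript per gene (CCDS first) and gapped alignment (Biopython 1.88).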

Additional observations from a re-analysis of the deposited data

How the results depend on the processing

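All 10 members kept a log2 fold change below 0 under every setting fitted, and their median ranged from -2.17 (without CORT1 or without Veh2) to -1.03 (without Veh1). The number of members past both thresholds was 0 by limma with a pseudocount of 0.1 TPM, with no filter, with either scaling, with no limit on fold change and with no trend, in each case with 2 members at an unadjusted p under 0.05. It ranged from 0 to 2 when single libraries were left out. In those fits Mup12 ranged from -4.35 to -1.67 and Mup14 from -3.41 to -1.97, and both passed only without Veh2. With the replicate number as a block, 1 member passed, Mup14 (-2.54, limma adjusted p = 0.0442), and 7 had an unadjusted p under 0.05; the numbers do not pair these livers, so this fit is given here only, and the cause of the change was not tested. The lowest adjusted p among members lay between 0.0340 and 0.269 over all settings. Over all genes tested, 810 passed, against 283 with no filter, 307 with the block and 247 (without CORT1) to 831 (without Veh2) with a library left out. The difference in the members' share moved from -5.12 to -6.31 points with the non-Mup total as denominator and to -5.58 points without mitochondrially encoded genes. It ranged from -7.69 to -3.05 points when single libraries were left out. With 3 libraries a group and a vehicle range of up to 58.0-fold, small differences and some large ones in these genes could not be resolved. Over all 6 liver libraries the log2 fold change was -2.66 for Mup12 (limma adjusted p = 0.287) and -2.44 for Mup7 (limma adjusted p = 0.382). That 0 of the 10 members passed there does not show that their differences were small.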

Other observations

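The composition of the Mup pool, as the TPM values give it, differed between livers as well as its size. The shares of the 7 close copies depend in part on how shared reads were divided, and that part was not tested. Mup22 and Mup20 together with Mup3 made up most of the members' TPM in CORT2, at 34.4%, 29.2% and 20.8%, whereas Mup7 led in Veh1 at 32.2% and in Veh3 at 28.0%. In Veh2 Mup20 led at 39.0%, followed by Mup22 at 26.9%. In CORT1 Mup22 led at 29.6%, followed by Mup20 at 22.0%. Mup12, with 1.01% in Veh1, was at 0.092% in Veh2 and 0.12% in CORT3.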
